A study of Mus musculus with 15 samples.

Results

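The genes of the respiratory chain and the ATP synthase were followed across adult neural stem cells (aNSCs) with and without Trrap deletion. Members were the protein-coding genes whose symbols begin with mt-, Nduf, Sdha to Sdhd, Uqcr, Cox4 to Cox8 or Atp5. This gave 106 genes of the 53801 in the count table, 13 of them encoded by mitochondrial DNA and 93 by the nucleus. The rule names symbols and used no measured value.

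The aNSCs were taken from the subventricular zone. The donor mice were aged 2 months by label (strain C57BL6/J-129sv), and the cells were grown in suspension with EGF and bFGF. All 15 libraries carried the Rosa26-CreERT2 transgene, a tamoxifen-inducible Cre recombinase expressed from the ubiquitously active Rosa26 locus. The 3 groups of 5 were Trrap Fl/+ cells without treatment (mice 19, 24, 26, 35 and 36), Trrap Fl/+ cells of the same 5 mice at 5 days after 4-OHT (4-hydroxytamoxifen, the ligand that activates the Cre) was first given, and Trrap Fl/Fl cells after 4-OHT (mice 27, 28, 29, 37 and 39). The labels give the 5 days as the length of the treatment, whereas the study's methods describe a shorter exposure and then fresh medium within that time. Because Fl/+ cells carry a floxed allele too, 4-OHT removes 1 Trrap copy in that control. The Fl/+ 4-OHT against Fl/+ untreated comparison therefore holds the ligand, Cre activity and the loss of 1 allele together, and these cannot be told apart. The Fl/Fl 4-OHT against Fl/+ 4-OHT comparison asks what loss of the remaining allele changes, and is called the Trrap deletion below. Both comparisons use the same 5 Fl/+ 4-OHT libraries, on opposite sides. A deviation of those libraries alone would move the 2 comparisons in opposite directions, so opposite changes in them are not independent results.

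The respiratory chain passes electrons from NADH (complex I) and succinate (complex II) through coenzyme Q, complex III and cytochrome c to oxygen at complex IV, and complex V uses the proton gradient so built to make ATP. Complexes I, III, IV and V each mix subunits encoded by mitochondrial DNA with subunits encoded in the nucleus, while complex II is wholly nuclear. Mitochondrial DNA is transcribed as long precursors from both strands, the heavy strand serving as template for nearly all of its genes and the light strand for mt-Nd6, and the precursors are cut at the tRNAs between the genes. Differentiation of neural stem cells into neurons is known to go with a greater reliance on oxidative phosphorylation.

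Libraries held 25720034 to 32187097 counted reads, so that 3 counts equal about 0.105 CPM (counts scaled to a common library size, here after TMM normalization). Trrap stood between 179 and 214 CPM in untreated cells, between 138 and 204 CPM in Fl/+ cells after 4-OHT, and between 82.8 and 142 CPM in Fl/Fl cells. The Fl/Fl 29 library, at 142 CPM, lay within the Fl/+ 4-OHT range, and the counts cover all exons, deleted or not. Summed neural stem cell markers (10 genes) were at 6730 to 11400 CPM in every library, whereas endothelial markers stayed at or below 0.816 CPM. Summed microglial markers (5 genes) were at most 0.616 CPM in any Fl/+ library and 0.688 to 2.01 CPM in Fl/Fl cells, with Aif1, Cx3cr1 and Tmem119 at no more than 3 counts in each library. Summed oligodendrocyte markers (7 genes) were at 212 to 703 CPM in untreated cells, 561 to 1100 CPM after 4-OHT and 687 to 2750 CPM in Fl/Fl cells, and 5 of the 7 rose with 4-OHT, where 7.34% of all genes were called higher. Among the 5 was Mog, with a mean of 0.0214 CPM in untreated cells and 0.876 CPM after 4-OHT. It could be tested only because of its treated libraries, so its rise is a description and not a test result. Summed astrocyte markers (6 genes) were at 2940 to 4010, 3710 to 4730 and 3140 to 6520 CPM in the same order of groups, and with 4-OHT Gfap rose by 3.25 while S100b fell by 1.91 and Aldoc by 0.74 on the log2 scale. Summed neuronal markers (8 genes) were at 837 to 1120, 817 to 1000 and 557 to 807 CPM in the same order of groups. The part of these cell type markers in the results on respiratory chain genes was not tested. In bulk libraries, fewer cells of a type and less RNA per cell cannot be told apart.

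Before any comparison, 6 of the 13 mitochondrially encoded genes had no usable counts. These were mt-Co2, mt-Atp8, mt-Atp6, mt-Co3, mt-Nd3 and mt-Nd4l, which lie next to each other between positions 7013 and 10173 of the mitochondrial genome, a stretch of 3161 bases (GRCm38). Over all 15 libraries they held 3 reads, all on mt-Co3, while their neighbours mt-Co1 and mt-Nd4 held at least 3190 and 532 CPM in every library. Only uniquely mapped reads were counted, and chromosome 1 carries a copy of this stretch. The copy also takes in sequence of the neighbours mt-Co1 and mt-Nd4. It is annotated as 7 unprocessed pseudogenes between positions 24611535 and 24616197. The copies held 2 to 8 reads per library in all, so the reads of this stretch were counted at neither place.

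The first 51 bases of mt-Co2 (a copper-binding catalytic subunit of complex IV), which is as long as 1 sequenced read, are shown with those of its chromosome 1 copy, because a read from either maps equally well to both. All 681 aligned bases of the pair are identical.
mt-Co2, chrM:7013-7063, plus strand: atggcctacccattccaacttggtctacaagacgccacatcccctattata
Gm28661, chr1:24615515-24615565, minus strand: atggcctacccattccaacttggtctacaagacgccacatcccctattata
For mt-Nd2 (a proton-pumping subunit of complex I), whose reads were counted, the 51-base stretch with the most differences from its chromosome 2 copy is shown, with the differing bases in capitals.
mt-Nd2, chrM:4724-4774, plus strand: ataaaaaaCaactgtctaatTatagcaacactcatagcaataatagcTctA
Gm13339, chr2:22590201-22590251, minus strand: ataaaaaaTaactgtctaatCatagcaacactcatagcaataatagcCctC
Of all 51-base windows of a gene, 100% occurred in another annotated transcript for mt-Co2, 99.9% for mt-Co3, 99.5% for mt-Atp6, 98.8% for mt-Nd4l and 98.0% for mt-Nd3. mt-Atp8 had 0%, since no annotated transcript covers the 233 bases between the chromosome 1 copies Gm10925 and Gm28661, whose mitochondrial counterparts lie 230 bases apart with most of mt-Atp8 between them. The share was 62.2% for mt-Nd4, 50.6% for mt-Co1, 8.0% for mt-Nd2 and 7.22% for mt-Nd5, and none for mt-Nd1, mt-Nd6 and mt-Cytb. The levels of mt-Nd4 and mt-Co1 are therefore underestimates relative to the other mitochondrially encoded genes. A comparison of 1 gene between libraries is less affected, as the same windows are lost in each.

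Per kilobase of exon, the countable heavy-strand transcripts stood above every nuclear member in untreated cells. Means were 6620 CPM per kilobase for mt-Cytb (the cytochrome b of complex III), 4240 for mt-Nd1, 4140 for mt-Co1 (the haem-bearing catalytic subunit of complex IV), 2050 for mt-Nd2, 1600 for mt-Nd4 and 1530 for mt-Nd5. The nuclear members with the highest means were Cox8a with 616, Cox6b1 with 603 and Atp5a1 and Cox6a1 with 543 CPM per kilobase each. mt-Nd6, the light-strand gene, had 20.8 CPM per kilobase. The order of mt-Nd1 and mt-Co1 was not the same in every untreated library, as mt-Nd1 was higher per kilobase in 3 of 5. mt-Nd4 was higher than mt-Nd5 in 5 of 5, by a ratio of 1.03 to 1.07. The libraries were made from poly(A) RNA, so these levels also reflect how well each mitochondrial transcript is captured by its tail.

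With 4-OHT, 5 of the 7 testable mitochondrially encoded mRNAs fell in Fl/+ cells and none rose (edgeR quasi-likelihood test, Benjamini-Hochberg adjusted p under 0.05). The median log2 fold change over the 7 was -1.13, against -0.01 over all 14821 genes tested. Of all genes tested, 13.8% were called, 6.45% as lower and 7.34% as higher.

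Among the complex I subunits, mt-Nd1 was at 2150, 3510, 4370, 6230 and 4030 CPM in the untreated cultures of mice 19, 24, 26, 35 and 36, and at 2160, 1120, 1580, 1880 and 2360 CPM in their cultures after 4-OHT. The treated culture was lower in 4 of 5 mice and the same in mouse 19, whose untreated culture had the lowest level of its group. mt-Nd1 was 2.22-fold lower after 4-OHT (log2 fold change -1.15 ± 0.271, SE, adjusted p = 0.018). mt-Nd2 fell by 1.20 on the log2 scale (SE 0.331, adjusted p = 0.0343), mt-Nd4 by 1.14 (SE 0.271, adjusted p = 0.0188) and mt-Nd5 by 0.92 (SE 0.255, adjusted p = 0.0351). The call of mt-Nd2 was lost without untreated 26 or 35 or without 4-OHT 19, 24, 26 or 35 (adjusted p of at most 0.0734), and that of mt-Nd5 without untreated 24, 26 or 35 or without any 1 of the treated libraries (adjusted p of at most 0.0782).

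In complex III, mt-Cytb was at 4840, 7250, 9020, 10200 and 6550 CPM without treatment and at 4380, 1770, 2770, 4090 and 4270 CPM with 4-OHT, in the same order of mice. All treated libraries lay below all untreated ones. The fall was 2.19-fold (log2 fold change -1.13 ± 0.269, SE, adjusted p = 0.0188), and the exact two-sided permutation test gave p = 0.00794, the smallest that 5 against 5 libraries allow. That test leaves out that both groups come from the same mice, and an exact sign-flip test over the 5 mice cannot go below 0.0625. mt-Nd4 was the other of the 7 without overlap between the groups, at 1330 to 3010 CPM untreated and 532 to 1250 CPM treated. Over all genes tested, 12% had groups that did not overlap.

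The complex IV transcript mt-Co1 did not pass the test. It was at 4360, 6270, 5770, 9440 and 6120 CPM untreated and at 5800, 3190, 3990, 4720 and 5510 CPM treated, and the groups overlapped (log2 fold change -0.46 ± 0.217, SE, adjusted p = 0.186). The light-strand mt-Nd6, which overlaps mt-Nd5 on the other strand and is told apart by the strand-specific libraries, was at 9.73, 8.55, 14.4, 16.2 and 5.08 CPM untreated and at 4.80, 6.05, 7.62, 9.33 and 5.01 CPM treated. It was lower in 5 of 5 mice, with a log2 fold change of -0.72 ± 0.306 (SE, adjusted p = 0.144). With the mouse as a replicate block its change was -0.66 and the adjusted p = 0.023, and 6 of the 7 mRNAs were then called lower, where 11.9% of all genes were.

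**Figure D1:**
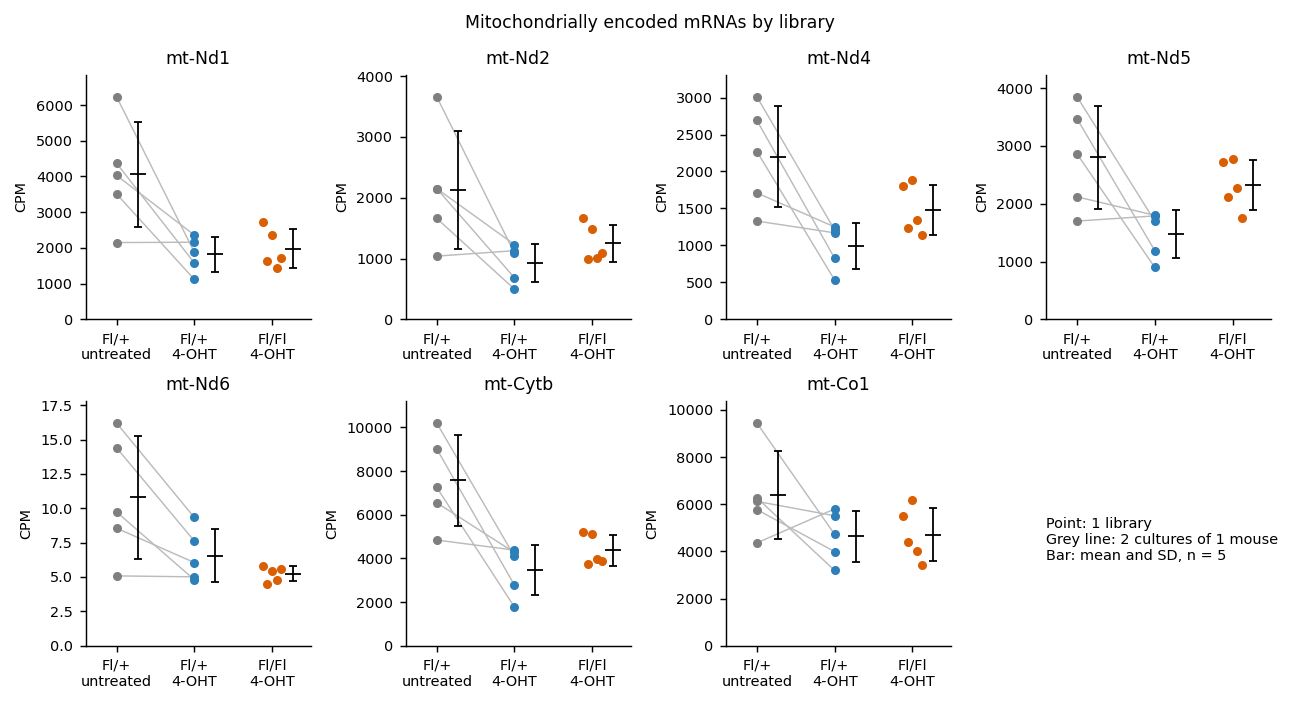
Level of the 7 countable mitochondrially encoded mRNAs in each of the 15 libraries, in CPM on linear axes that start at 0, by group. Points are libraries, grey lines join the cultures of 1 mouse, and black bars give the mean and SD of 5 libraries. The lines of mt-Nd4, mt-Cytb and mt-Nd6 fall for all 5 mice, and mt-Cytb of the Fl/Fl group lies between 3750 and 5200 CPM.

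As a share of all counted reads, mitochondrially encoded mRNAs took 1.5%, 2.32%, 2.65%, 3.42% and 2.20% in untreated cells (mice 19, 24, 26, 35 and 36) and 1.69%, 0.787%, 1.09%, 1.47% and 1.67% after 4-OHT. In Fl/Fl cells (mice 27, 28, 29, 37 and 39) the shares were 2.06%, 1.47%, 2.09%, 1.41% and 1.33%. The 93 nuclear genes took 1.43% to 1.95%, 1.33% to 1.53% and 1.33% to 1.49% in the same order of groups, a narrower range than that of the 13 mitochondrially encoded ones. The ratio of mitochondrially encoded to nuclear reads accordingly ran from 0.772 to 2.07, from 0.514 to 1.25 and from 0.948 to 1.57. The untreated culture of mouse 19 stood apart from the other untreated libraries. It had the lowest mitochondrially encoded share (1.5%), the highest nuclear share (1.95%) and the highest share of the mitochondrial ribosomal RNAs mt-Rnr1 and mt-Rnr2 (0.213%, against 0.0368% to 0.143% in the others). Without both cultures of that mouse, 5 of the 7 mitochondrially encoded mRNAs were still called lower with 4-OHT and their median was -1.33 on the log2 scale. The ribosomal RNAs were not called in any comparison, with log2 fold changes of -0.85 ± 0.404 (SE, adjusted p = 0.187) for mt-Rnr1 and -0.98 ± 0.380 (SE, adjusted p = 0.109) for mt-Rnr2 with 4-OHT.

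The mRNAs of the mitochondrial genome did not fall in equal measure. To set the 7 countable mRNAs against each other within a library, the share of each in their summed reads was also compared, a measure chosen after the levels had been seen (21 relations, 7 genes in 3 comparisons). mt-Co1 made up 28.2%, 26.3%, 21.0%, 25.9% and 27.0% of these reads in untreated cells and 35.3%, 39.7%, 36.1%, 32.1% and 33.6% after 4-OHT. All treated libraries were above all untreated ones, mouse 19 included, and the means were 25.7% ± 2.77 and 35.4% ± 2.89 (SD). An exact two-sided permutation test gave p = 0.00794 and an adjusted p of 0.0278 over the 21 relations. Taken by mouse, the share rose in 5 of 5, where the exact sign-flip test gave p = 0.0625, the smallest it allows, so that the paired test cannot pass 0.05. In Fl/Fl cells mt-Co1 took 28.0%, 31.0%, 31.3%, 28.5% and 26.4%. These lay below all Fl/+ 4-OHT libraries (exact permutation p = 0.00794, adjusted p = 0.0278) and overlapped the untreated ones (exact permutation p = 0.0556, adjusted p = 0.106). mt-Cytb went from 30.3% ± 1.93 to 25.5% ± 2.15 (SD) with 4-OHT without overlap (exact permutation p = 0.00794, adjusted p = 0.0278) and was lower in 5 of 5 mice (exact sign-flip p = 0.0625).

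mt-Nd5 showed a different order. It made up 9.34% to 12.6% of the mitochondrially encoded reads in untreated cells, 10.8% to 11.5% after 4-OHT and 13.4% to 16.2% in Fl/Fl cells. The Fl/Fl libraries lay above all others (exact permutation p = 0.00794 and adjusted p = 0.0278 against either group), while both Fl/+ groups had a mean of 11.1%. The neighbouring mt-Nd4 was at 7.41% ± 0.581 in Fl/+ 4-OHT cells and 9.14% ± 0.397 (SD) in Fl/Fl cells, again without overlap (exact permutation p = 0.00794, adjusted p = 0.0278). Unlike mt-Nd5, its share in untreated cells, 7.53% to 9.79%, overlapped that of Fl/Fl cells (exact permutation p = 0.429, adjusted p = 0.474). A share can move because another gene's share moves, so these values show unequal change and not which of the mRNAs changed.

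**Figure D2:**
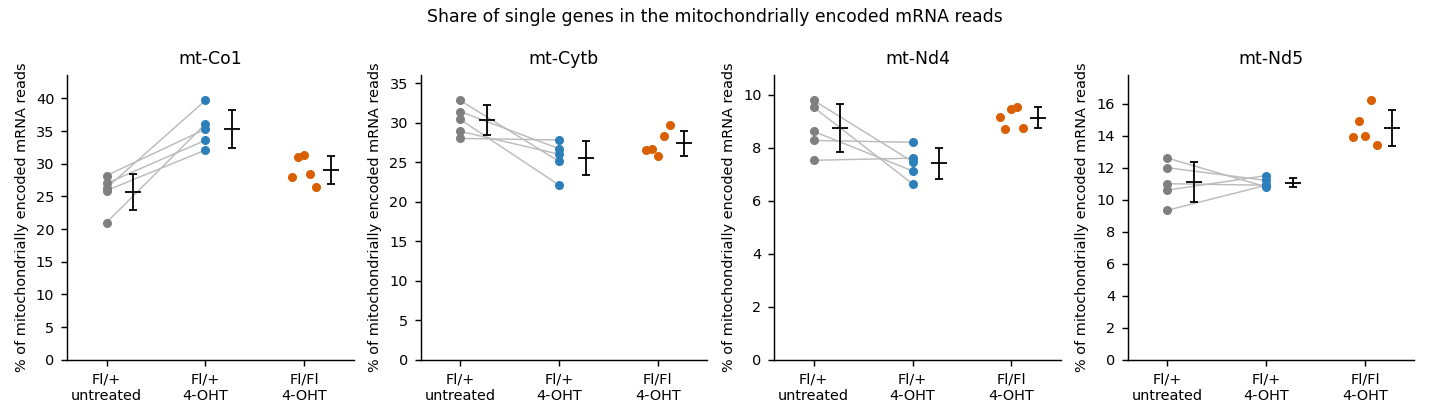
Share of single genes in the summed reads of the mitochondrially encoded mRNAs, in percent on linear axes that start at 0, for each library by group. Points are libraries, grey lines join the cultures of 1 mouse and bars give mean and SD of 5 libraries. The mt-Co1 share of Fl/+ 4-OHT cells (32.1% to 39.7%) lies above both other groups, and the mt-Nd5 share of Fl/Fl cells (13.4% to 16.2%) does likewise.

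Of the 88 nuclear members tested with 4-OHT, 7 fell and 3 rose, while 78 had a fold change below 0. The median log2 fold change was -0.26. By complex, the medians were -0.26 for complex I (2 of 43 tested called lower), -0.13 for complex II (0 of 4 called), -0.34 for complex III (1 of 8 lower), -0.31 for the subunits of complex IV (2 of 11 lower) and -0.27 for complex V (2 of 17 lower). The 3 called higher were the complex IV paralogs Cox6b2, Ndufa4l2 and Cox4i2, of which Cox4i2 passed the filter on low counts only through the treated libraries. The shares of members called, 11.4% of the nuclear ones, lay close to the 13.8% of all genes.

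Ndufa1, an accessory subunit of complex I needed for the assembly of its membrane arm, had the largest fall among the nuclear members. It was at 74.7, 56.3, 67.3, 66.6 and 57.7 CPM untreated and at 45.4, 44.3, 49.9, 44.3 and 39.1 CPM treated, with no overlap. This was a log2 fold change of -0.53 ± 0.0984 (SE, adjusted p = 0.00572). The others that fell were Cox4i1 (the ubiquitous subunit IV of complex IV) by 0.50 on the log2 scale, Ndufb11 (complex I, accessory) by 0.42, Atp5j (coupling factor 6 of complex V) by 0.38, Uqcrfs1 (the Rieske iron-sulphur protein of complex III) by 0.33, Atp5c1 (the central-stalk gamma subunit of complex V) by 0.33 and Cox6c (complex IV, accessory) by 0.32. Their adjusted p ran from 0.0169 to 0.04.

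Most of these nuclear calls depended on single libraries. Cox4i1 was at 723 CPM in its untreated culture and at 480 to 548 CPM in the other untreated ones, against 349 to 456 CPM after 4-OHT. Cox4i1, Ndufb11 and Atp5c1 lost their call without the treated library of mouse 19, 35 or 36 or without both cultures of mouse 19 (adjusted p of at most 0.116), and Atp5j without the treated library or both cultures of mouse 19 (adjusted p of at most 0.0813). Atp5c1 also lost it with no filter on low counts. None of the 4 lost it without the untreated library of mouse 19 alone. Their folds stayed below 0 in all alternatives, with the smallest at -0.36 for Cox4i1, -0.33 for Ndufb11, -0.25 for Atp5c1 and -0.27 for Atp5j on the log2 scale. Of 21 alternatives, 9 ended the call of Uqcrfs1 (adjusted p of at most 0.184). Without both cultures of mouse 19, Ndufa1 alone of the 7 remained called (log2 fold change -0.47, adjusted p = 0.034). The nuclear median was then -0.13, with 69 of 88 members below 0, where 5.73% of all genes were called and 2.33% were called lower. With the mouse as a block, 15 nuclear members were called lower and 3 higher, where 11.9% and 13.8% of all genes were. No call of the unblocked test was lost.

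**Figure D3:**
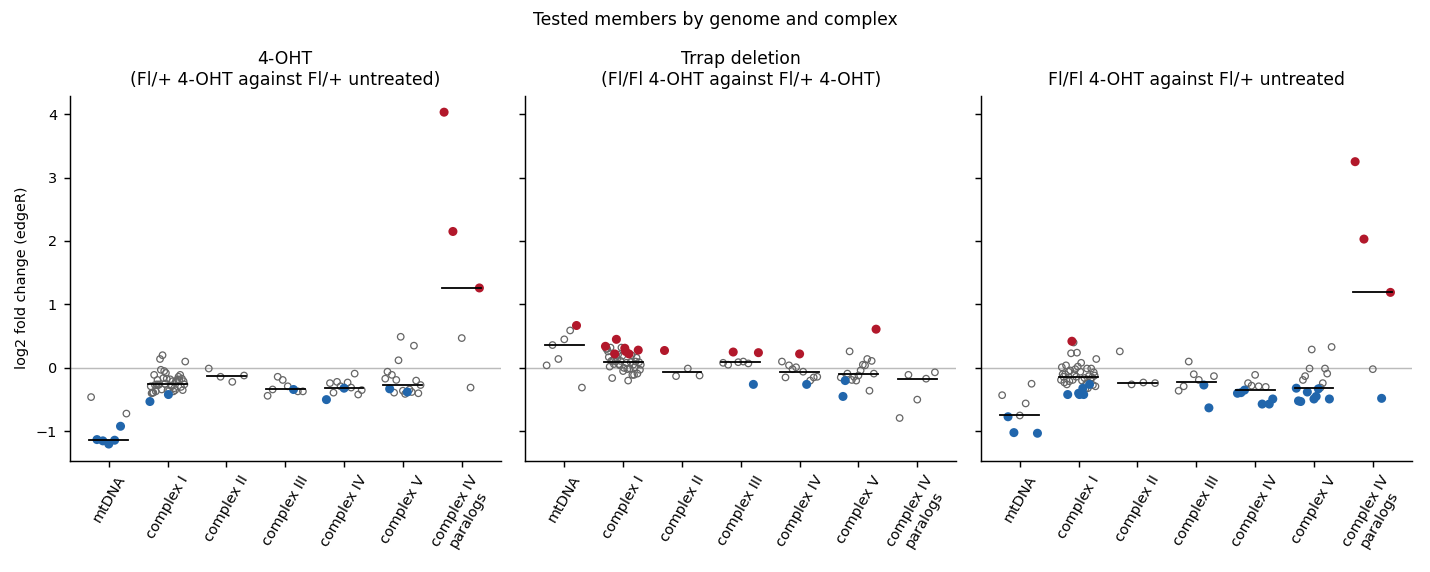
Log2 fold change of each tested member in the 3 comparisons, grouped into mitochondrially encoded genes and the nuclear genes of each complex. Filled points passed the test (red higher, blue lower), open points did not, and black lines are medians. With 4-OHT the mitochondrially encoded genes have a median of -1.13, and the 3 red points of the complex IV paralogs lie between 1.26 and 4.03.

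Complex IV holds several subunits for which a second gene is used in particular tissues. Cox6b2, known as the testis form of subunit VIb, was at 8.11, 8.13, 2.80, 4.16 and 2.14 CPM in untreated cells and at 21.0, 33.6, 37.6, 11.5 and 8.32 CPM after 4-OHT. It was higher in 5 of 5 mice and the groups did not overlap, although the treated culture of mouse 36 was only just above the highest untreated one. Cox6b2 rose 4.43-fold (log2 fold change 2.15 ± 0.495, SE, adjusted p = 0.0165). In Fl/Fl cells it was at 27.3, 17.5, 30.7, 19.1 and 8.13 CPM, which overlapped the Fl/+ 4-OHT range (Trrap deletion, log2 fold change -0.11 ± 0.440, SE, adjusted p = 0.871). The common form Cox6b1 was at 376 to 534 CPM untreated and 298 to 422 CPM treated, and did not pass the test (log2 fold change -0.29 ± 0.124, SE, adjusted p = 0.149). Per kilobase, Cox6b1 was at 494 CPM and Cox6b2 at 20.2 CPM after 4-OHT.

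Cox4i2, a form of subunit IV linked to oxygen sensing in lung and vessel wall, had 7, 2, 1, 1 and 3 counts in the untreated libraries, which is about 0.035 to 0.253 CPM. After 4-OHT it was at 1.59, 2.69, 1.94, 1.35 and 1.06 CPM, above every untreated library. Because the gene entered the test only through the group where it was high, it had to differ there, and its values are given as a description. The fitted log2 fold change of 4.03 depends on the prior count of the fit, as the untreated counts were so few. In Fl/Fl cells it was at 0.497, 1.46, 1.02, 1.55 and 0.451 CPM, again above every untreated library. Ndufa4l2, a hypoxia-responsive paralog of the complex IV subunit Ndufa4, was at 0.258 to 1.12 CPM untreated and at 1.32 to 2.37 CPM after 4-OHT (log2 fold change 1.26 ± 0.330, SE, adjusted p = 0.0284). Its call was lost without untreated 24 or 35, without 4-OHT 19 or without both cultures of mouse 19 (adjusted p of at most 0.0722). Ndufa4 itself was at 137 to 257 CPM untreated and at 147 to 173 CPM treated (log2 fold change -0.35, adjusted p = 0.201).

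The other paralogs stayed near the limit of detection or did not pass. Cox7a1, a muscle and heart form, was at 0.552 to 1.56 CPM untreated and 0.776 to 2.63 CPM treated (adjusted p = 0.454). Cox7b2, Cox8b and Cox8c were too low to be tested, as was Cox6a2, the heart and muscle form of subunit VIa, with at most 0.485 CPM in any library. Cox7a2l, which takes part in joining complexes III and IV into supercomplexes, was well expressed at 81.5 to 146 CPM in the Fl/+ libraries and did not pass with 4-OHT (log2 fold change -0.31, adjusted p = 0.128).

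**Figure D4:**
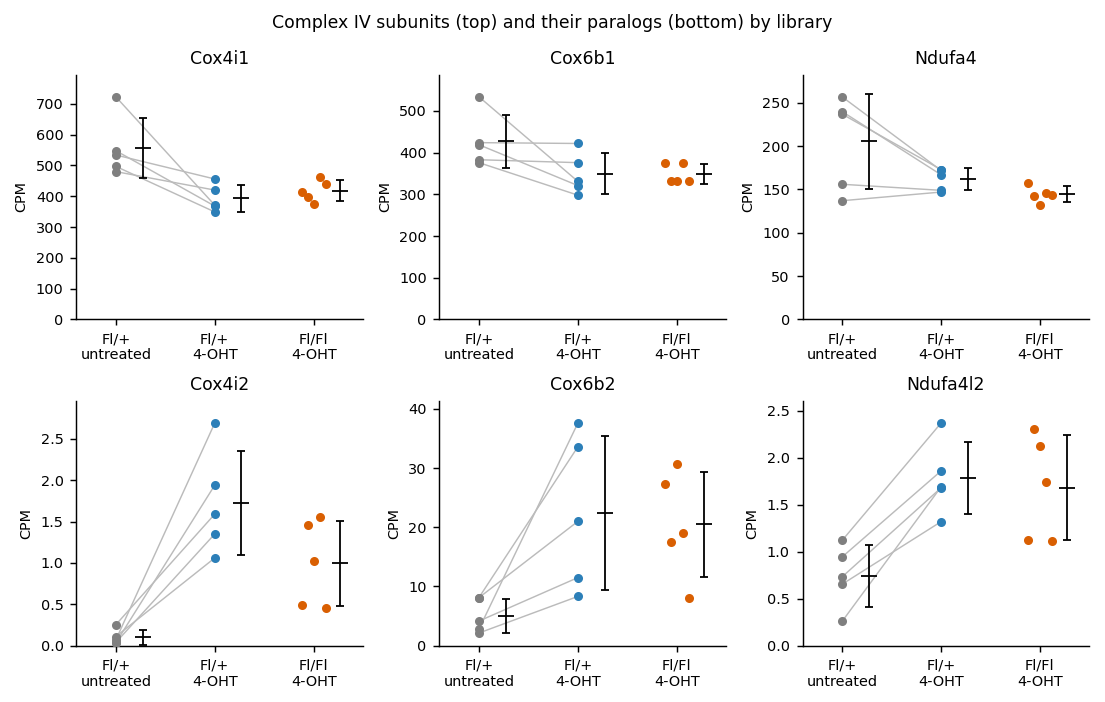
Level in each library of 3 complex IV subunits (top) and of their paralogs (bottom), in CPM on linear axes that start at 0. Points are libraries, grey lines join the cultures of 1 mouse and bars give mean and SD of 5 libraries. The paralogs rise along every grey line from untreated to 4-OHT, from 0.035 to 0.253 up to 1.06 to 2.69 CPM for Cox4i2, at levels far below their common forms.

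Upon Trrap deletion, 1 of the 7 testable mitochondrially encoded mRNAs, mt-Nd5, rose and none fell, and 6 had a fold change above 0. Of all genes tested, 31.7% were called, 16.8% as higher and 15% as lower. mt-Nd5 was at 1790, 899, 1190, 1700 and 1800 CPM in Fl/+ 4-OHT cells and at 2720, 2110, 2770, 2270 and 1750 CPM in Fl/Fl cells, and 4 of 5 Fl/Fl libraries were above all Fl/+ 4-OHT ones. The rise was 1.60-fold (log2 fold change 0.67 ± 0.202, SE, adjusted p = 0.0265). It lost its call without the Fl/+ 4-OHT 26, Fl/Fl 27 or Fl/Fl 29 library, with adjusted p of at most 0.0627. mt-Nd4 followed with 0.59 ± 0.233 (SE, adjusted p = 0.0759) on the log2 scale, and mt-Nd1 was at 0.14 ± 0.222 (SE, adjusted p = 0.67). The median over the 7 was 0.36, against 0.02 over all genes.

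Of the nuclear members, 12 rose and 4 fell upon Trrap deletion, 18.2% of the 88 tested and thus a smaller share than the 31.7% of all genes, and the median log2 fold change was 0.05. In complex I, 7 of 43 rose (16.3%, near the 16.8% of all genes called higher), none fell and 34 were above 0, with a median of 0.10. Ndufaf1, an assembly factor of the complex I membrane arm, was at 28.1, 30.2, 32.1, 26.6 and 27.8 CPM in Fl/+ 4-OHT cells and at 44.4, 37.0, 39.6, 39.0 and 36.1 CPM in Fl/Fl cells. All Fl/Fl libraries were higher, and also above all untreated ones, which held 24.3 to 33.8 CPM. This was a log2 fold change of 0.45 ± 0.0855 (SE, adjusted p = 0.00284). All 8 complex I assembly factors with an Ndufaf symbol were above 0, with a median of 0.17, though Ndufaf1 alone passed.

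The accessory complex I subunits that rose were Ndufa1 by 0.34, Ndufb2 by 0.31, Ndufb3 by 0.26, Ndufb7 by 0.22 and Ndufa9 by 0.22 on the log2 scale, together with the core iron-sulphur subunit Ndufs8 by 0.28. Ndufa1 was at 53.2 to 62.8 CPM in Fl/Fl cells, above the 39.1 to 49.9 CPM of Fl/+ 4-OHT cells and reaching into the lower end of the 56.3 to 74.7 CPM of untreated cells. Ndufb2 was at 27.8 to 29.0 CPM in Fl/+ 4-OHT cells and at 30.9 to 36.3 CPM in Fl/Fl cells, without overlap (adjusted p = 0.00621). The core subunits Ndufs1 and Ndufv1 were not called. The call of Ndufs8 was lost in 9 of 19 alternatives (adjusted p of at most 0.112). The calls of Ndufb3, Ndufb7 and Ndufa9 were not followed over the alternatives.

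In complex II, Sdha, the flavoprotein that oxidises succinate, was at 449, 494, 487, 513 and 486 CPM in Fl/+ 4-OHT cells and at 598, 583, 532, 614 and 596 CPM in Fl/Fl cells. The groups did not overlap (log2 fold change 0.28 ± 0.0668, SE, adjusted p = 0.00874), while the untreated cells, at 370 to 638 CPM, spanned both. The call of Sdha was lost with a dispersion shared by all 15 libraries (adjusted p = 0.133). Sdhb, Sdhc and Sdhd were not called. In complex III, Uqcrb and Uqcrq rose by 0.25 and 0.24, and Uqcrh, the hinge protein, fell by 0.26 on the log2 scale (adjusted p = 0.0415). In complex IV, Cox6c rose by 0.22 and Cox7b fell by 0.26. Of 19 alternatives, 7 ended the call of Uqcrh (adjusted p of at most 0.124) and 8 that of Cox7b (adjusted p of at most 0.0773). Those of Uqcrb, Uqcrq and Cox6c were not followed over the alternatives.

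The largest called fall was in complex V. Atp5b, the catalytic beta subunit of the F1 head, was at 1850, 2250, 1940, 1920 and 1810 CPM in Fl/+ 4-OHT cells and at 1490, 1430, 1190, 1510 and 1470 CPM in Fl/Fl cells. All Fl/Fl libraries were below all others, including the untreated ones at 1610 to 2440 CPM. This was a log2 fold change of -0.45 ± 0.0951 (SE, adjusted p = 0.00493). Atp5c1 fell by a smaller step, from 335, 365, 354, 350 and 351 to 315, 308, 288, 301 and 303 CPM, and the groups did not overlap (log2 fold change -0.20 ± 0.0578, SE, adjusted p = 0.0233). Its call was lost with no filter on low counts (adjusted p = 0.0801). Atp5a1, the alpha subunit that alternates with beta in the F1 head, was at 1450 to 1640 CPM and 1220 to 1460 CPM, and did not pass (log2 fold change -0.15 ± 0.0765, SE, adjusted p = 0.15). In the other direction Atp5s, a factor related to ATP synthase coupling, was at 7.31 to 8.71 CPM in Fl/+ 4-OHT cells and at 9.83 to 14.1 CPM in Fl/Fl cells (log2 fold change 0.61 ± 0.122, SE, adjusted p = 0.00399). Over the nuclear members, 5 had all Fl/Fl libraries higher and 4 had all lower, 9 of 88, where 22.6% of all genes tested had groups without overlap.

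In Fl/Fl 4-OHT against Fl/+ untreated cells, where genotype and treatment differ together, 30 of the 95 tested members were called (31.6%), 4 as higher and 26 as lower. Of all genes, 30.7% were called, 15.7% as higher and 15.1% as lower, so the share of members called was close to that of all genes. This comparison shares libraries with both others, so its values are not independent of theirs. The mitochondrially encoded median was -0.75, and mt-Nd6 (-1.03 ± 0.274, SE, adjusted p = 0.0151), mt-Nd1 (-1.02 ± 0.264, SE, adjusted p = 0.0134) and mt-Cytb (-0.77 ± 0.196, SE, adjusted p = 0.0121) were called on the log2 scale. mt-Nd6 was at 5.81, 4.52, 5.41, 4.79 and 5.59 CPM in Fl/Fl cells, a range that only the lowest untreated library, mouse 36 at 5.08 CPM, reached.

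By complex, 8 of 17 nuclear members of complex V, 6 of 11 subunits of complex IV, 6 of 43 members of complex I and 2 of 8 of complex III were lower, and 0 of 4 of complex II. Cox8a, subunit VIII of complex IV, was at 489, 390, 334, 358 and 335 CPM in untreated and at 248, 261, 247, 268 and 246 CPM in Fl/Fl cells, without overlap (log2 fold change -0.57 ± 0.107, SE, adjusted p = 0.00261). Uqcrh fell by 0.63, Cox7b by 0.57, Atp5c1 by 0.53, Atp5b by 0.52 and Ndufa4 by 0.49 on the log2 scale, with adjusted p of 0.00413, 0.00409, 0.000811, 0.0156 and 0.0412. Ndufa4 was the least stable of these, as its call was lost in 10 of 19 alternatives. The 4 called higher were Ndufaf1 by 0.42 and the paralogs Cox6b2 by 2.03, Ndufa4l2 by 1.19 and Cox4i2, which again passed the filter only through the group where it was high. Ndufa4l2 lost its call in 5 of 18 alternatives (adjusted p of at most 0.0752). The paralog Cox7a2l fell by 0.48 (adjusted p = 0.00597).

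Among genes that serve the respiratory chain without being members, 10 of the 20 tested electron carriers and enzymes of coenzyme Q synthesis rose upon Trrap deletion and 1 fell (median log2 fold change 0.24), and none rose and 3 fell with 4-OHT (1 higher and 6 lower with the mouse as a block). Over all genes, 16.8% were called higher and 15% lower upon Trrap deletion, and 7.34% and 6.45% with 4-OHT. Among the carriers and enzymes that rose upon Trrap deletion were Coq4 and Coq8b, both needed for coenzyme Q synthesis, up by 0.47 and 0.43, and Etfa, a subunit of the flavoprotein that carries electrons from fatty acid oxidation, up by 0.43 on the log2 scale (adjusted p = 0.00143, 0.00339 and 0.00263). Assembly factors of complex II had 2 of 4 higher, Sdhaf2 by 0.41 and Sdhaf4 by 0.44, and those of complex III had 2 of 6 higher, Ttc19 by 0.52 and Uqcc2 by 0.38. Complex I assembly factors without an Nduf symbol had 1 of 10 higher (Dmac2 by 0.47). Complex IV assembly had 3 higher and 1 lower of 23, with Coa6 up by 0.49 and Cox20, a chaperone of the COX2 protein, down by 0.65. Complex V assembly had 2 higher and 2 lower of 7, led by Atpif1, the inhibitor of ATP hydrolysis, which fell by 0.76 (adjusted p = 0.000239). With 4-OHT, Cox20 was also called lower, by 0.52, and no other gene of these assembly lists was called. With the mouse as a block, complex III assembly had 1 lower and complex IV assembly 2 lower, where 11.9% of all genes were.

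The regulators of mitochondrial biogenesis had 5 of 15 lower and none higher upon Trrap deletion, among them the PGC-1-related coactivator Pprc1 by -0.45, the GA-binding protein subunit Gabpb1 by -0.42 and the transcription factor Yy1 by -0.25 on the log2 scale. With 4-OHT in Fl/+ cells, 3 of the 15 were higher, Ppargc1b by 0.62, Pprc1 by 0.34 and Yy1 by 0.29, and with the mouse as a block 5 were higher and 1 lower. The opposite changes of Pprc1 and Yy1 in the 2 comparisons are not independent, as both use the Fl/+ 4-OHT libraries. Over all genes the shares higher and lower were 16.8% and 15% upon Trrap deletion, 7.34% and 6.45% with 4-OHT, and 13.8% and 11.9% with the block. Of 29 genes of mitochondrial transcription and RNA maintenance, 1 fell with 4-OHT and none rose. It was Hsd17b10, a subunit of mitochondrial RNase P, with a log2 fold change of -0.53 ± 0.135 (SE, adjusted p = 0.0248). Upon Trrap deletion that list had Mterf3, a repressor of mitochondrial transcription, up by 0.49 and the RNA stability factor Tbrg4 down by 0.38. In mitochondrial DNA replication, 3 of 14 were higher and 2 lower upon Trrap deletion, led by the mitochondrial topoisomerase Top1mt with 0.72, and 1 was higher with 4-OHT (2 with the block). The citric acid cycle had 3 higher and 2 lower of 17 upon Trrap deletion (Ogdh up by 0.53, Pdha1 down by 0.38), and protein import had 1 higher and 2 lower of 20 (Tomm20 up by 0.63, Phb2 down by 0.33) and 1 lower with 4-OHT (Chchd3 by 0.42), where the block gave 2 higher and 4 lower.

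Promoter letters, which the choice of members did not use, were counted in the nuclear members and in all genes, with no test. RefSeq windows of 300 bases around the gene start (GRCm38.p6) were at hand for 74 of the 93 nuclear members, in 79 windows. On either strand, the NRF1 motif (GCGCA, then any base, then GCGC) stood in 25.3% of them and in 4.6% of all 32851 windows, the ETS motif CCGGAAG in 22.8% and 8.9%, the YY1 motif AAGATGGC in 12.7% and 2.7%, and the GC box GGGCGG, bound by SP1, in 43.0% and 35.7%. The mean GC content of the windows was 57.7% for members and 53.8% for all. The 250 bases before the start are shown for Ndufaf1, the member with the lowest adjusted p upon Trrap deletion, and for Cox6b2, raised with 4-OHT, with matches to the motifs in capitals. Ndufaf1 holds 1 ETS motif and 1 GC box, and Cox6b2 holds 1 GC box and none of the other motifs.
Ndufaf1, chr2:119662835-119663084, minus strand: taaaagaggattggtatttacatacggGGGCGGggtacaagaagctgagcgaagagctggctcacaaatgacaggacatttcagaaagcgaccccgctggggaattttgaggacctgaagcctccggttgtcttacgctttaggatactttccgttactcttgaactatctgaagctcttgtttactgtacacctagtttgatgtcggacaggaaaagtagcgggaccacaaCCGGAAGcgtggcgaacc
Cox6b2, chr7:4753095-4753344, minus strand: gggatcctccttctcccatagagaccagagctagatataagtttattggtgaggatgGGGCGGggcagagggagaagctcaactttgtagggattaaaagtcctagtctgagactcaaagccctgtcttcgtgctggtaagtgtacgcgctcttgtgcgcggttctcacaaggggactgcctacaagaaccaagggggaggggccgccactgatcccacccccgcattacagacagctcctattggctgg
A match to these letters does not show that the factor binds there in these cells.

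Ndufs5, an accessory subunit of complex I, could not be tested, and its counts followed the animal rather than the group. It had 9, 7, 6, 8 and 131 counts in untreated libraries, 6, 5, 4, 10 and 122 after 4-OHT, and 174, 13, 10, 5 and 130 in Fl/Fl libraries. Both cultures of mouse 36 and the cultures of mice 27 and 39 thus had 122 counts or more, and the other 11 had 13 or fewer. The processed pseudogene BC002163 on chromosome 16 had 281, 308, 339 and 281 counts in the untreated and treated cultures of mouse 36 and in mice 27 and 39, and 426 to 770 counts elsewhere. The 2 genes are shown over coding positions 61 to 125 of Ndufs5 (position 1 is the A of the start codon), with the differing bases in capitals.
Ndufs5, chr4:123715955-123716019, minus strand: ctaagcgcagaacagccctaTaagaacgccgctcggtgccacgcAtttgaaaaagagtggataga
BC002163, chr16:42955691-42955755, plus strand: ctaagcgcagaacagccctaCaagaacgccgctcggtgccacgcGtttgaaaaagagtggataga
Over 319 aligned bases they differ at 2 positions, T81C and A105G (Ndufs5 base first). A uniquely mapped read from this stretch is therefore told apart by these positions only. Whether these mice, of a mixed strain, differ in the sequence of either gene was not tested.

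**Figure D5:**
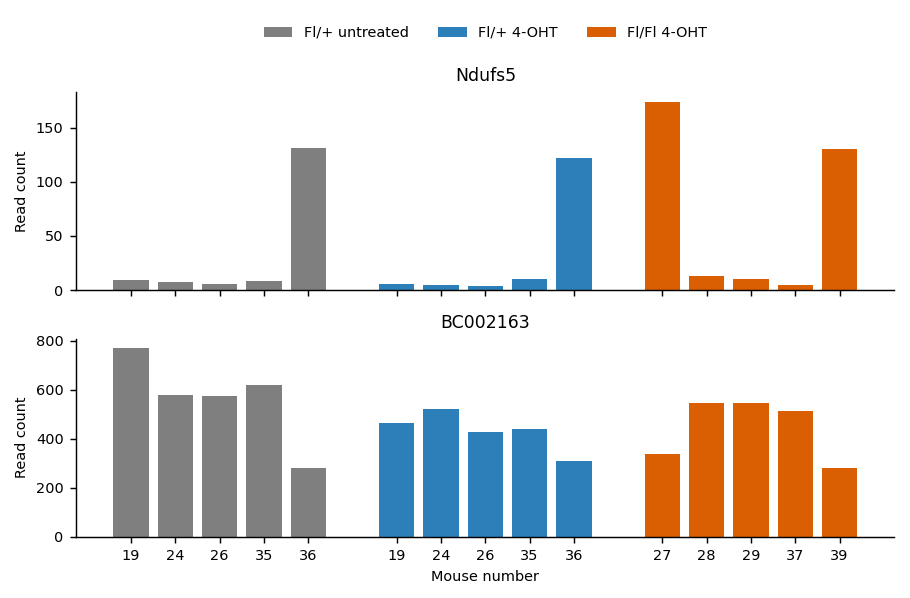
Read counts of Ndufs5 and of its copy BC002163 as bars on linear axes from 0, for each of the 15 libraries, coloured by group and labelled with the mouse number. Both cultures of mouse 36 and those of mice 27 and 39 have 122 to 174 counts on Ndufs5 and 281 to 339 on BC002163.

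Further nuclear members have many windows in common with transcripts of other genes, and their levels may be uncertain for that reason. The windows were sought on both strands, and genes that overlap a member at the same place were not left out. A shared window therefore need not be a second copy, and how far the counts were lowered was not tested. The share of 51-base windows also found in a transcript of another gene was 64.0% for Ndufaf2, 41.2% for Atp5o, 38.2% for Atp5g2, 31.4% for Ndufb6, 28.3% for Ndufa13, 25.0% for Uqcrb and 22.0% for Cox7c. Cox7c, a common subunit of complex IV, was listed at only 3.49 CPM ± 0.575 (SD) in untreated cells, and Atp5g2, one of 3 genes for the membrane ring of ATP synthase, at 0.715 CPM ± 0.142 (SD). Cox6b2, Cox4i2, Ndufa4l2, Ndufa1, Ndufaf1 and Atp5s had no such windows.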

How the data were processed

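The authors prepared poly(A) RNA libraries with a strand-specific kit and sequenced them as single-end reads, all 15 pooled over the same lanes. The authors demultiplexed with bcl2fastq 1.8.4, mapped to GRCm38 with STAR 2.5.4b and counted uniquely mapped reads per Ensembl gene with featureCounts 1.5.0, set to the library's strand. What the authors deposited is a table of these counts, without normalization. Because reads with several equally good places were left out, members with near-identical copies are undercounted. There were no molecular identifiers, so floors of 3 counts cover counting error only.

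The Ensembl IDs were matched to a GENCODE annotation of GRCm38 (53706 of 53801 genes), and 37 symbols that meet the naming rule but are not protein coding were left out. Each comparison used the 10 libraries of its groups: genes were filtered with filterByExpr (minimum count 10), scaled by TMM and tested over all genes with edgeR 4.0.16 in R 4.3.3 (quasi-likelihood F test), called at a Benjamini-Hochberg adjusted p under 0.05. The 95 members tested were the same in each. Levels are CPM on TMM-scaled library sizes. Single genes were also compared by exact two-sided permutation tests on log2(CPM + 0.5). For shares of mitochondrially encoded reads, exact sign-flip tests over the 5 mice were added after seeing the data. The test was checked on simulated counts. These were drawn as independent libraries, without pairing by mouse or outlying libraries, so the check does not cover either. Copies were sought as exact 51-base windows in the annotated transcripts.

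The Fl/+ groups come from the same 5 animals, by the mouse numbers in the labels. Over 15435 genes, the deviations of same-mouse cultures from their group means correlated at 0.204 to 0.586, and those of different mice at -0.489 to 0.317. The main test had no block, since the study's methods state none, and the block was an alternative. Other alternatives were DESeq2 1.42.0, other scalings and filters, a dispersion shared by all libraries, sex or mouse number series as covariate, and each library left out. The fit without both cultures of mouse 19 was added after seeing the data. Separate mice stand behind the replicates of each group.

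Named genes were Trrap, all mitochondrially encoded members, Ndufs1, Ndufv1, Sdha, Sdhb, Uqcrc1, Uqcrfs1, Cox4i1, Cox5a, Atp5a1 and Atp5b, the complex IV paralog pairs, in each comparison up to 6 largest called rises and falls among nuclear members with a mean of at least 1 CPM, and from each other pathway list up to 3 genes of lowest adjusted p. Any other gene was named with its values in view. The members and lists were chosen with earlier results of these data known. The 4-OHT result of the citric acid cycle list is not reported here.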

Additional observations from a re-analysis of the deposited data

Results flagged for a closer look

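In groups of 5, a library was marked where its gap to the nearest other exceeded 0.71 of the group's range (Dixon's test). This held in 15 of 126 groups examined, where chance marks about 1 in 20. The untreated culture of mouse 19 was the highest of its group for Cox4i1 (723 CPM, others 480 to 548), Ndufb2 (47.7 CPM, others 31.6 to 35.1), Ndufs8 (211 CPM, others 127 to 145), Sdhb (311 CPM, others 215 to 229) and Uqcrh (451 CPM, others 269 to 321). All 5 are nuclear members of complexes I to IV, and the same library had the lowest share of mitochondrially encoded reads (1.5%).

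Ndufs5 was far higher in both cultures of mouse 36 than in the other cultures of their groups, at 4.82 CPM untreated (others 0.210 to 0.326) and 4.30 CPM after 4-OHT (others 0.158 to 0.347). After 4-OHT, the culture of mouse 24 was the highest for Atp5a1 (1640 CPM, others 1450 to 1500), Cox7b (161 CPM, others 142 to 144) and Cox8b (0.0633 CPM, others 0). The Cox8b value is 2 counts, under the floor of 3, so that nothing is read from it.

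Among Fl/Fl libraries, mouse 29 was the lowest for Atp5b (1190 CPM, others 1430 to 1510) and Ndufb2 (30.9 CPM, others 35.1 to 36.3). Mouse 27 was the highest for Atp5j (157 CPM, others 126 to 134), and mouse 37 for Cox6a1 (370 CPM, others 298 to 318) and Cox6a2 (0.271 CPM, others 0 to 0.0695). The causes were not tested.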

How the results depend on the processing

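Of the settings that keep all libraries, those that moved the count of called members by over 1.5 times were these. For the Trrap deletion, 17 members called became 7 with no filter on low counts and 8 with a dispersion shared by all 15 libraries. For 4-OHT, 15 became 30 with DESeq2's Wald test, 29 with the shared dispersion, 28 with the mouse number series as a covariate and 24 with the mouse as a replicate block. The cause was not tested.

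Leaving out 1 library at a time gave 8 to 17 calls for the Trrap deletion, 6 to 18 for 4-OHT and 20 to 31 for Fl/Fl 4-OHT against untreated. The fewest were reached without Fl/Fl 29 (8) and without Fl/+ 4-OHT 19 (6). Without Fl/+ 4-OHT 19, Fl/Fl 27 or Fl/Fl 28 the Trrap deletion had 9 calls and without Fl/+ 4-OHT 35, 36 or Fl/Fl 39 it had 11, and 4-OHT had 9 without treated 35 or 36 and 8 without both cultures of mouse 19. The mitochondrially encoded medians in these fits ran from 0.18 to 0.45, from -1.33 to -0.92 and from -0.90 to -0.48, and the nuclear medians from 0.00 to 0.06, from -0.29 to -0.13 and from -0.24 to -0.12. The ends -1.33 and -0.13 came from the fit without both cultures of mouse 19.

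Of 111 results on named genes, 45 were called, of which 25 kept their call in all alternatives run and 20 lost it in at least 1, while 15 uncalled results gained a call in at least 1. None changed direction with a call. The block ended no call with 4-OHT. Scaling by library size alone moved the median of all genes to 0.09 for Fl/Fl 4-OHT against untreated, from 0.00. A block could be fitted for 4-OHT only, as the other comparisons share no mice. Members with few counts are limited by depth, and those with shared sequence by unique mapping, which depth does not change.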
